A study of Mus musculus with 15 samples.

Results

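The 8 genes Adrb1, Adrb3, Adcy3, Adcy4, Adcy5, Adcy6, Adcy7 and Adcy9 encode 2 of the beta-adrenergic receptors and 6 of the membrane adenylyl cyclases. They were chosen by their gene symbols, 8 of the 24421 symbols in the deposited count table, and all 8 passed the filter on low counts. The 15 RNA libraries, 3 in each of 5 groups, were made from MAP cells, which are mouse adipocyte progenitors kept as an immortalized line. The cells of every group, vehicle included, were first made into adipocytes with insulin, isobutylmethylxanthine, dexamethasone and rosiglitazone for 2 days and then insulin with rosiglitazone for 2 days. At day 7 to 8 they were given vehicle, forskolin, or rosiglitazone for 3 days (Rosi3D). Forskolin was left on the cells for 4 h (FSK4h), for 1 day (FSK1D) or for 3 days (FSK3D). Neither the doses nor the harvest time of the vehicle cells is stated in the labels. With 1 vehicle group for all lengths of treatment, the treatment and the age of the culture at harvest cannot be told apart. The cells are 1 immortalized line, and the vehicle cells had themselves seen rosiglitazone, and isobutylmethylxanthine, an inhibitor of cAMP breakdown, during differentiation.

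Beta-adrenergic receptors sit at the cell surface, bind noradrenaline and adrenaline, and switch on the stimulatory G protein. That protein turns on adenylyl cyclases, the membrane enzymes that make cAMP from ATP, and cAMP then drives lipolysis and thermogenic genes in adipocytes through protein kinase A. Adrb3 encodes the receptor best known from rodent fat, and Adrb1 the one best known from heart. Forskolin binds membrane cyclases directly and so raises cAMP without a receptor, whereas rosiglitazone activates the nuclear receptor PPARγ, the master regulator of fat cell genes. The cyclases differ in what modulates them. Adcy3 belongs to the forms responsive to calcium and calmodulin and is the cyclase of olfactory neurons, Adcy5 and Adcy6 are inhibited by calcium, Adcy4 and Adcy7 are stimulated by G protein beta-gamma dimers, and Adcy9 is known to respond little to forskolin.

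Library totals ran from 14056200 to 56282582 counts, and no library was dropped. The 8 mature adipocyte markers summed to 12203 to 13756 CPM (scaled counts, corrected for library size and composition) in vehicle libraries, 12563 to 14260 at 4 h, 9462 to 10731 at 1 day and 20192 to 21050 at 3 days of forskolin, and 16800 to 17388 with rosiglitazone. The 7 progenitor markers summed to 719 to 764 CPM with vehicle and 378 to 418 CPM with rosiglitazone. With forskolin they summed to 622 to 702 CPM at 4 h, 905 to 943 at 1 day and 712 to 780 at 3 days. Single progenitor markers did not move together at 1 day: Ly6a averaged 431 CPM and Pdgfrb 209 CPM in FSK1D libraries, against 121 and 402 CPM with vehicle. The mature markers did not all move together at 1 day. Cidec averaged 397 CPM and Lipe 375 CPM in FSK1D libraries, against 278 and 356 CPM with vehicle. The other mature markers averaged lower at 1 day. With rosiglitazone the mature markers did not all move together either. Cfd averaged 2054 CPM and Pparg 189 CPM there, against 4698 and 197 CPM with vehicle. The other mature markers averaged higher, Fabp4 for example at 3140 CPM against 702 CPM. The labels call the cells progenitors, while the mature markers were high in every group. The 5 macrophage markers summed to 2.62 to 2.72 CPM with vehicle, 4.93 to 5.15 at 4 h, 4.21 to 4.95 at 1 day, 3.10 to 4.45 at 3 days and 1.83 to 3.08 with rosiglitazone, almost all of it from Csf1r and Cd68, with Ptprc and Adgre1 at or near 0. The 4 endothelial markers summed to between 3.08 and 9.23 CPM over all libraries, mostly from Kdr, with Cdh5 near 0. The 5 Schwann and neuronal markers reached 5.30 to 11.9 CPM, with Th at 0, and the 4 muscle markers 0 to 0.186 CPM. The part of these shifts in the results was not tested. In bulk RNA, fewer cells of a type and less RNA per cell cannot be told apart.

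Over the forskolin time course, Adcy3 stood out by its large early rise, and Adrb3 fell at every time. Adcy3 was 9.31-fold higher at 4 h than with vehicle and was still 2.76-fold higher at 3 days. Adrb3 was lower in all 9 forskolin libraries than in any vehicle library and higher in all 3 rosiglitazone libraries. All 8 genes changed over vehicle and the 3 forskolin times, where 81.5% of all tested genes did. At 4 h, 4 of the 8 genes rose, where 28.4% of the 14421 tested genes did, and 3 fell, where 30.7% did. At 1 day, 4 rose and 2 fell, against 19.5% and 20.7% of tested genes. At 3 days of forskolin 5 rose and 2 fell, against 25.9% and 27.0%. With rosiglitazone 5 rose and 1 fell, against 28.6% and 32.0%. The median absolute log2 fold change over the 8 genes was 1.03 at 4 h, where the median over all tested genes was 0.34. It was 0.91 at 1 day, 0.82 at 3 days and 0.91 with rosiglitazone, where all tested genes had 0.21, 0.30 and 0.37. The 8 genes were picked for their role and with results known, and no test was made of them as a set. Scaling by library size alone moved the split of all tested genes at 4 h to 17.5% higher and 46.5% lower, and gave a median log2 fold change over all genes of -0.23, where composition scaling gave -0.03. Under that scaling 3 of the 8 genes rose and 4 fell at 4 h, since the rise of Adcy6 was no longer called and Adcy5 was called lower (-0.31, adjusted p = 0.0175).

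**Figure D1:**
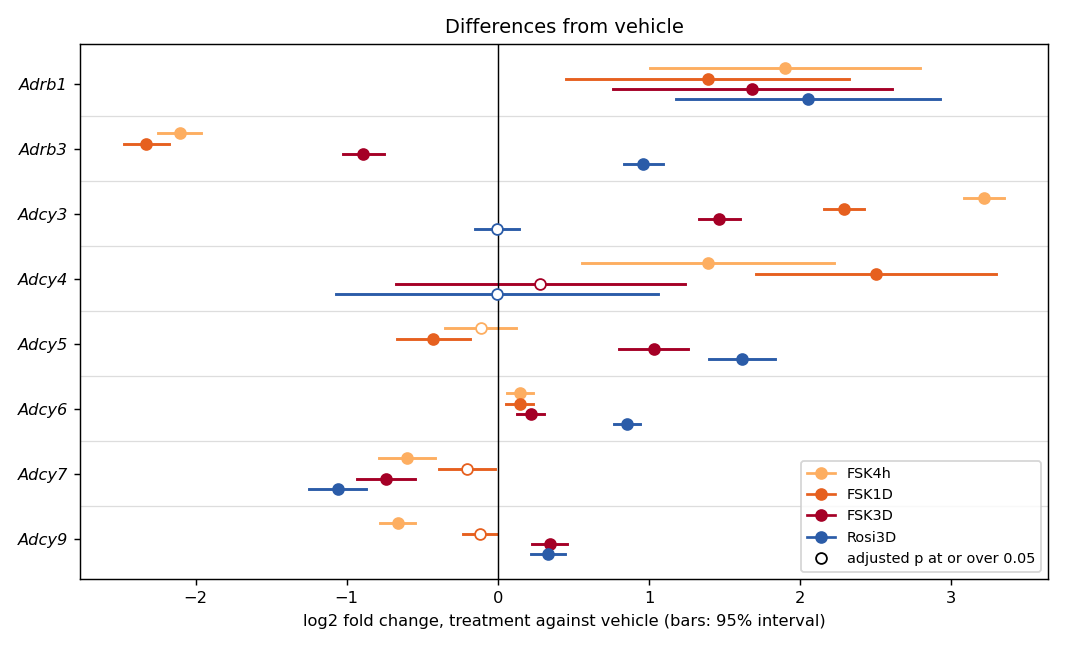
Log2 fold change against vehicle with its 95% interval for each of the 8 genes (rows) in 4 comparisons, where open points mark an adjusted p of 0.05 or more. Adcy3 reaches 3.22 at 4 h, and Adrb3 lies below 0 at all 3 forskolin times and at 0.96 with rosiglitazone. Adcy6 at 4 h sits at 0.14 and turns to -0.048 when libraries are scaled by size alone.

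The start regions of 5 of the genes are shown for reference: those of Adcy3, which changed most, of Adrb1, Adcy4 and Adcy5, which also changed at least 2-fold against vehicle, and of Adcy9, which fell at 4 h and was higher at 3 days. They come from RefSeq on GRCm38.p6 and run 250 bases before to 50 bases after a start site, in the direction of the gene. Adcy7, which also changed at least 2-fold against vehicle (0.479-fold with rosiglitazone), has 3 such regions, which were searched but are not shown. Those of Adrb3, which also changed at least 2-fold, and of Adcy6 were not analysed here. Capitals mark TGACG or its reverse complement CGTCA, the core of the cAMP response element, searched on both strands. The full element TGACGTCA was searched as well.
Adrb1, chr19:56721867-56722166, plus strand: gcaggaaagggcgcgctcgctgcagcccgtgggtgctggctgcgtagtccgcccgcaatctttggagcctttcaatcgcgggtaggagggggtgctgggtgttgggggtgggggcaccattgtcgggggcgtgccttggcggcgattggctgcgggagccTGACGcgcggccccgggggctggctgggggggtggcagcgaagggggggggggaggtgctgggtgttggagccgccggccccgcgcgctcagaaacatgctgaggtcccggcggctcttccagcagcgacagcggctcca
Adcy3 start 1, chr12:4133147-4133446, plus strand: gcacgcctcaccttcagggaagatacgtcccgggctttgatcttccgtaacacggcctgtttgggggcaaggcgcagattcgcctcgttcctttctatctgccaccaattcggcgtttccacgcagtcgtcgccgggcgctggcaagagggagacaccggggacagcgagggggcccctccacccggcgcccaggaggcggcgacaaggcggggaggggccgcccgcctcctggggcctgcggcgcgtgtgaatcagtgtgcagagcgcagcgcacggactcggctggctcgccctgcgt
Adcy3 start 2, chr12:4133903-4134202, plus strand: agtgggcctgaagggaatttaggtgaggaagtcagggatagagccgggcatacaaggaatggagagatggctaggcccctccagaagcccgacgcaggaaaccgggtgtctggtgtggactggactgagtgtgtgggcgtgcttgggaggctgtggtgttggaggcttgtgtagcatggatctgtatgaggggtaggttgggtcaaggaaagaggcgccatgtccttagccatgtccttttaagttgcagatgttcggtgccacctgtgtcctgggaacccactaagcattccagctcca
Adcy4, chr14:55784023-55784322, minus strand: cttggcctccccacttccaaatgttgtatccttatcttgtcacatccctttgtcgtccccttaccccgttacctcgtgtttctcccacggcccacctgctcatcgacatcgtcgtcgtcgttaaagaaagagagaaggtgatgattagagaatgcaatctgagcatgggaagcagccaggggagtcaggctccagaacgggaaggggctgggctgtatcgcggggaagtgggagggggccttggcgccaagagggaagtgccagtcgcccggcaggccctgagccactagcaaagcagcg
Adcy5, chr16:35154614-35154913, plus strand: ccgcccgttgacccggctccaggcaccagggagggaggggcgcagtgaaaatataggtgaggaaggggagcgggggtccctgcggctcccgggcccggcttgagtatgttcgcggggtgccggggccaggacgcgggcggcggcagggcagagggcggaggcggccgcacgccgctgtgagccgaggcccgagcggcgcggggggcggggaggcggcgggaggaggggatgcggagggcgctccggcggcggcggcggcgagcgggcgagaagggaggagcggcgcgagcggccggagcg
Adcy9, chr16:4420449-4420748, minus strand: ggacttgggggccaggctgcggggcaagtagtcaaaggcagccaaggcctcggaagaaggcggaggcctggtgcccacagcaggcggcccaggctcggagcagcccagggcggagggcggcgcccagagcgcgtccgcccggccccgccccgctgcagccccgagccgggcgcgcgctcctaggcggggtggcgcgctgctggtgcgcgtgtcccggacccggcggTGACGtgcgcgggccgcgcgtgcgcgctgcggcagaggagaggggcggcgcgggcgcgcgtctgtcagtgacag
The short motif stands in the Adrb1 region, where its first base is 90 bases before the start site, and in the Adcy9 region, 24 bases before it. It also stands in 1 of the 3 Adcy7 regions, 28 bases before the start site. Neither Adcy3 region holds it, nor do those of Adcy4 and Adcy5, and the full element is in none of the 9 regions searched, which belong to 6 of the 8 genes. Of 32851 mouse start regions of the same length, 20.8% hold the short motif and 1.79% the full element. The 9 regions are 54.7% to 79% G and C, where the median over all start regions is 52.7%. These shares are therefore not matched for base content. A match is a description of letters in these windows, and where none was found the letters are absent from these windows alone.

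Among the receptors, Adrb3 was measured at high counts. It had 114, 137 and 120.4 CPM in vehicle libraries, 27.5, 30.8 and 28.1 CPM at 4 h, 24.3, 26.9 and 22.7 CPM at 1 day and 60.6, 68.3 and 71.0 CPM at 3 days of forskolin. The forskolin libraries were all lower than the vehicle ones, with the 3-day libraries above the earlier times. The log2 fold change (± SE, here and for all log2 differences below) was -2.10 ± 0.0697 (adjusted p = 5.66e-21) at 4 h, -2.32 ± 0.0713 (adjusted p = 2.39e-21) at 1 day and -0.89 ± 0.0661 (adjusted p = 2.07e-12) at 3 days. From 1 day to 3 days of forskolin it rose by 1.43 (adjusted p = 4.66e-16) while staying below vehicle. Rosiglitazone libraries had 242, 235 and 245 CPM, against 114, 137 and 120.4 CPM with vehicle, a log2 fold change of 0.96 ± 0.0629 (adjusted p = 5.42e-14), or 1.95-fold. The summed mature adipocyte markers were also higher there, at 16800 to 17388 CPM with rosiglitazone against 12203 to 13756 CPM with vehicle. Of the single markers, Cfd and Pparg averaged lower there, and the part of the markers in the rise of Adrb3 was not tested. After 3 days of forskolin the marker sum was higher than with vehicle as well, while Adrb3 was lower. Adrb3 lies on chr8:27225776-27250616, minus strand. Its longest single exon overlap with a gene on the opposite strand, Gm45470, which the table does not list, is 480 bases.

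Adrb1 was low, with 20, 8 and 4 counts in the vehicle libraries, 33, 48 and 33 at 4 h, 20, 38 and 16 at 1 day, 24, 12 and 47 at 3 days, and 89, 24 and 43 with rosiglitazone. In CPM these were 0.617, 0.263 and 0.147 with vehicle, 0.907, 1.94 and 1.19 at 4 h, 0.728, 1.44 and 0.612 at 1 day, 0.979, 0.822 and 1.49 at 3 days and 1.57, 1.12 and 1.67 with rosiglitazone. All the treated groups averaged more than the vehicle group, and the libraries within a group differed widely. The log2 fold change was 1.90 ± 0.438 (adjusted p = 3.68e-04) at 4 h, 1.39 ± 0.459 (adjusted p = 0.0149) at 1 day, 1.68 ± 0.454 (adjusted p = 0.00213) at 3 days and 2.05 ± 0.430 (adjusted p = 1.03e-04) with rosiglitazone. At 1 day the lowest library lay just under the highest vehicle library, and at the other times no library overlapped. The 1-day call was lost without vehicle S2 (adjusted p = 0.0577), without vehicle S3 (0.0789) and without FSK1D S8 (0.151). Without vehicle S1, the vehicle library with the highest level, the log2 fold changes were larger, at 2.65 at 4 h, 2.15 at 1 day, 2.45 at 3 days and 2.82 with rosiglitazone. Adrb1 lies on chr19:56722199-56733113, plus strand. Low counts in this table were mostly even, so counts were halved for the counting intervals. The ratio to vehicle was then 3.61 (95% counting interval 2.05 to 6.74) at 4 h and 4.22 (95% counting interval 2.44 to 7.75) with rosiglitazone.

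**Figure D2:**
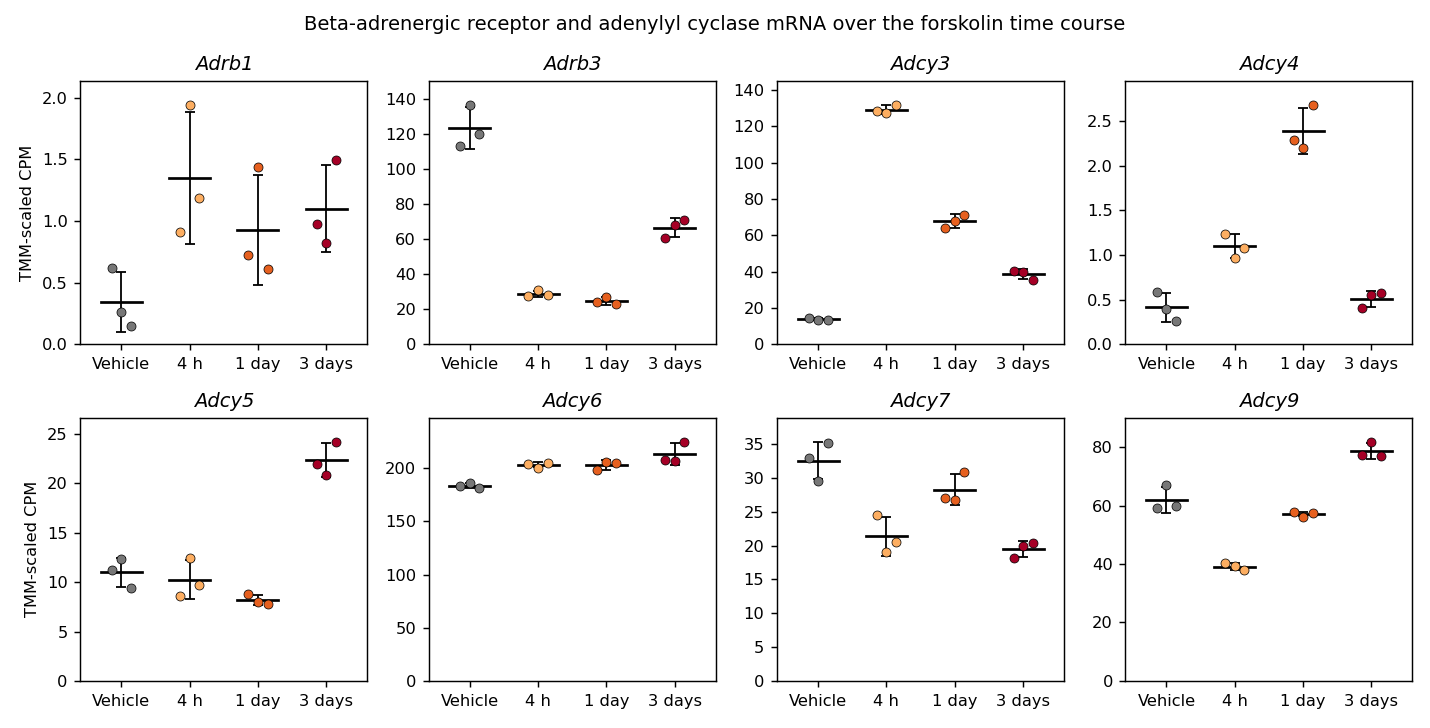
CPM of each of the 8 genes with vehicle and after 4 h, 1 day and 3 days of forskolin, on a separate linear axis per gene, where dots are libraries, bars are means and error bars are SD (n = 3). Adcy3 is highest at 4 h and Adrb3 lowest at 1 day, while Adcy4 peaks at 1 day.

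Among the cyclases, Adcy3 had 14.4, 13.6 and 13.6 CPM with vehicle, 128, 127 and 132 CPM at 4 h, 64.0, 68.0 and 71.3 CPM at 1 day and 40.2, 39.9 and 35.2 CPM at 3 days. The libraries of the 4 groups did not overlap, and after the 4-h peak the level was lower at each later time. The log2 fold change against vehicle was 3.22 ± 0.0653 (adjusted p = 2.56e-29) at 4 h, 2.29 ± 0.0655 (adjusted p = 1.48e-24) at 1 day and 1.47 ± 0.0677 (adjusted p = 1.08e-18) at 3 days. Rosiglitazone libraries had 13.8, 14.1 and 13.6 CPM, against 14.4, 13.6 and 13.6 CPM with vehicle, and these overlapped. The difference was -0.0039 with a 95% interval of -0.15 to 0.14 (adjusted p = 0.967). Adcy3 lies on chr12:4133103-4213525, plus strand, and its longest single exon overlap with Cenpo on the opposite strand is 921 bases. Cenpo, which encodes a centromere protein, had a log2 fold change of -0.02 ± 0.106 (adjusted p = 0.882) at 4 h and 0.16 ± 0.106 (adjusted p = 0.241) at 1 day. It was lower than with vehicle at 3 days of forskolin (-0.36, adjusted p = 0.00686) and with rosiglitazone (-0.46, adjusted p = 4.29e-04).

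Adcy4 was also at low counts, with 19, 12 and 7 in vehicle libraries, 45, 24 and 30 at 4 h, 63, 58 and 70 at 1 day and 10, 8 and 18 at 3 days. These were 0.586, 0.394 and 0.257 CPM with vehicle, 1.24, 0.971 and 1.08 at 4 h, 2.29, 2.20 and 2.68 at 1 day and 0.408, 0.548 and 0.573 at 3 days. The 1-day libraries lay above all others, the 4-h libraries above vehicle, and the 3-day libraries overlapped vehicle. At 1 day the log2 fold change against vehicle was 2.50 ± 0.389 (adjusted p = 2.33e-06), and at 4 h 1.39 ± 0.410 (adjusted p = 0.00409). At 3 days it was 0.28 with a 95% interval of -0.68 to 1.24 (adjusted p = 0.644). With rosiglitazone the counts were 39, 3 and 6, or 0.686, 0.139 and 0.234 CPM, with 1 library high and the others low, and the difference from vehicle was -0.0059 (-1.07 to 1.06, adjusted p = 0.993). On halved counts the ratio to vehicle was 5.69 (95% counting interval 3.45 to 9.86) at 1 day and 2.67 (95% counting interval 1.55 to 4.79) at 4 h. Adcy4 lies on chr14:55769057-55784095, minus strand. Of the macrophage markers, Csf1r averaged 0.805 CPM with vehicle, 2.56 at 4 h, 3.07 at 1 day and 1.66 at 3 days. Like Adcy4, Csf1r was highest at 1 day. Cd68 did not follow this course. It averaged 1.75 CPM with vehicle, was highest at 4 h at 2.44 CPM and was lowest at 1 day. Ptprc averaged at most 0.0463 CPM in these groups. Of the endothelial markers, Kdr averaged 3.35 to 5.97 CPM and Cdh5 at most 0.0693 CPM in them. The part of these cell types in the course of Adcy4 was not tested.

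Adcy5 and Adcy6, the calcium-inhibited pair, followed different courses. Adcy5 had 11.2, 12.3 and 9.43 CPM with vehicle, 8.61, 12.5 and 9.69 at 4 h, 8.81, 7.99 and 7.77 at 1 day and 22.0, 20.9 and 24.2 at 3 days. Its 3-day libraries lay above all of these and its 1-day libraries below all vehicle libraries. The log2 fold change was -0.11 at 4 h (-0.35 to 0.12, adjusted p = 0.406), and the gene fell at 1 day by 0.43 on the log2 scale (adjusted p = 0.00418) and rose at 3 days to 1.03 ± 0.111 (adjusted p = 1.34e-09). The 1-day fall was lost without vehicle S2 (adjusted p = 0.0553). With rosiglitazone it had 36.0, 31.6 and 33.1 CPM, all above the vehicle libraries, with a log2 fold change of 1.61 ± 0.107 (adjusted p = 7.50e-15). Adcy5 was thus high in the 2 groups in which the mature marker sum was high, although Cfd and Pparg averaged lower with rosiglitazone than with vehicle. The part of the markers in the course of Adcy5 was not tested. Adcy6 had 184, 186 and 182 CPM with vehicle, 203, 200.5 and 205 at 4 h, 198, 206 and 205 at 1 day, 208, 207 and 225 at 3 days and 341, 328 and 327 with rosiglitazone. The rosiglitazone libraries lay above all others. Its changes with forskolin were small, 0.14 ± 0.0430 at 4 h, 0.14 ± 0.0430 at 1 day and 0.22 ± 0.0432 at 3 days, and the 4-h value turned to -0.048 (adjusted p = 0.333) when scaled by library size alone. The rise with rosiglitazone was 0.85 ± 0.0429 (adjusted p = 2.71e-18). Adcy5 lies on chr16:35154877-35305738, plus strand. Adcy6 lies on chr15:98589973-98610076, minus strand. Its longest single exon overlap with Gm29331 on the opposite strand, which the table does not list, is 495 bases.

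Adcy7 had 33.0, 29.6 and 35.1 CPM with vehicle, 24.5, 19.0 and 20.6 at 4 h, 27.1, 26.8 and 30.9 at 1 day, 18.2, 19.9 and 20.3 at 3 days and 16.0, 17.1 and 13.7 with rosiglitazone. It fell at 4 h (-0.60 ± 0.0918, adjusted p = 9.87e-07), at 3 days (-0.74 ± 0.0947, adjusted p = 4.41e-08) and with rosiglitazone (-1.06 ± 0.0940, adjusted p = 8.66e-12), while the 1-day difference was -0.20 with an interval of -0.39 to -0.020 (adjusted p = 0.0720). The rosiglitazone libraries of Adcy7 were below all others. Adcy9 had 59.1, 67.1 and 59.8 CPM with vehicle, 40.2, 39.4 and 37.9 at 4 h, 57.7, 56.2 and 57.3 at 1 day, 77.3, 81.9 and 77.0 at 3 days and 80.8, 77.4 and 75.1 with rosiglitazone. It fell at 4 h (-0.66 ± 0.0573, adjusted p = 5.05e-12) and rose at 3 days (0.34 ± 0.0560, adjusted p = 3.55e-06) and with rosiglitazone (0.33 ± 0.0553, adjusted p = 3.93e-06), and at 1 day the difference was -0.12 (-0.23 to -0.0043, adjusted p = 0.0931). Adcy7 lies on chr8:88272403-88329962, plus strand, and Adcy9 on chr16:4287529-4420498, minus strand. Positions are on GRCm38 from GENCODE vM21.

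Levels of different genes can be set side by side only per length, here CPM per kilobase of the length given in the table. Adrb3 was the highest of the 8 in vehicle libraries, at 44.2 ± 4.28 CPM per kb (SD, n = 3, as below), followed by Adcy6 at 30.5 ± 0.325 and Adcy9 at 7.91 ± 0.562. Adrb1 and Adcy4, the lowest, overlapped in range. At 4 h Adcy6 was highest at 33.7 ± 0.395, followed by Adcy3 at 27.3 ± 0.493 and Adrb3 at 10.3 ± 0.619. At 1 day the order of the first 3 was the same, with Adcy3 at 14.3 ± 0.770. At 3 days of forskolin Adcy6 was highest and Adrb3 second at 23.8 ± 1.94, and with rosiglitazone Adrb3 was highest at 86.2 ± 1.82, followed by Adcy6 at 55.1 ± 1.31. Of the 40 ranks, 34 stayed when the longest annotated transcript gave the length. Among those that changed, Adcy9 passed Adrb3 at 1 day. The length of Adcy9 is 7840 bases in the table and 4974 for that transcript. Neighbours did not overlap in range, except Adrb1 and Adcy4 with vehicle and at 4 h.

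The summed level of the 6 cyclases was 48.8 ± 0.663 CPM per kb with vehicle, 71.7 ± 0.669 at 4 h, 62.1 ± 1.58 at 1 day, 61.2 ± 1.36 at 3 days and 77.2 ± 2.23 with rosiglitazone. Adcy6 held the largest share in every group. Its share was 62.5% ± 0.207 with vehicle, 47.0% ± 0.138 at 4 h, 54.3% ± 0.761 at 1 day, 57.8% ± 1.49 at 3 days and 71.4% ± 0.409 with rosiglitazone. The share of Adcy3 was 6.01% ± 0.231 with vehicle, 38.1% ± 0.447 at 4 h, 23.1% ± 0.653 at 1 day, 13.3% ± 1.24 at 3 days and 3.79% ± 0.114 with rosiglitazone. These shares are descriptions, were not tested, and depend on the gene lengths used.

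**Figure D3:**
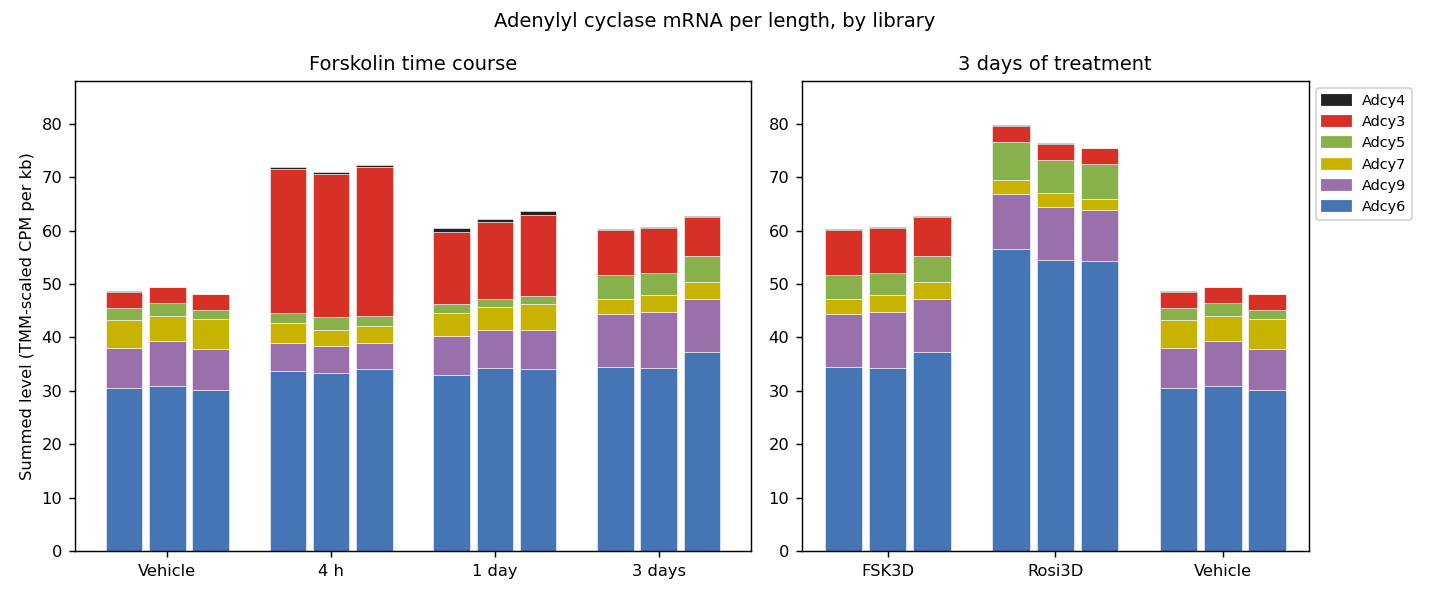
Level of each of the 6 cyclases, stacked per library in CPM per kb of the length in the table. One panel shows the forskolin time course, and the other FSK3D, Rosi3D and vehicle. Adcy3 takes 38.1% of the sum at 4 h of forskolin and 6.01% with vehicle.

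Between the forskolin times the genes moved in different directions. At 1 day against 4 h, Adcy4, Adcy7 and Adcy9 were higher, where 28.4% of tested genes were, and Adrb3, Adcy3 and Adcy5 lower, where 28.9% were. At 3 days against 1 day, Adrb3, Adcy5 and Adcy9 were higher, where 25.2% of tested genes were, and Adcy3, Adcy4 and Adcy7 lower, where 25.8% were. At 3 days against 4 h, Adrb3, Adcy5 and Adcy9 were higher and Adcy3 and Adcy4 lower, where 35.0% of tested genes were higher and 33.5% lower. Adcy4, highest at 1 day, differed by -2.22 ± 0.396 (adjusted p = 1.49e-05) at 3 days against 1 day. Adcy5 differed by 1.46 ± 0.116 (adjusted p = 1.36e-12) over the same times and Adcy9 by 1.00 ± 0.0577 (adjusted p = 8.02e-17) at 3 days against 4 h. Adrb1 and Adcy6 passed no test between forskolin times, although with library size alone Adcy6 was called higher at 1 day (0.16, adjusted p = 0.00121) and at 3 days (0.25, adjusted p = 3.55e-06) against 4 h. For Adrb1 at 3 days against 1 day the interval was -0.52 to 1.12. The 1-day against 4-h call of Adrb3 was lost without FSK4h S5 (adjusted p = 0.0839), FSK1D S7 (0.0530) or FSK1D S9 (0.101), and that of Adcy5 without S5, S8 or S9, with a value of -0.15 without S5. The 3-day against 4-h call of Adcy4 was lost without FSK4h S4 (0.0597) or FSK3D S10 (0.0697). With library size alone the 1-day against 4-h calls of Adrb3 and Adcy5 were lost (adjusted p = 0.521 and 0.292). That of Adcy5 was also lost with halved counts (0.0573) and in a fit of the 2 groups alone (0.0591).

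After 3 days, forskolin and rosiglitazone cells differed in 5 of the 8 genes, 2 higher with forskolin, where 22.5% of tested genes were, and 3 lower, where 20.7% were. The median absolute difference over the 8 was 0.47, where all tested genes had 0.24. Adrb3 averaged 66.6 ± 5.43 CPM with forskolin and 241 ± 5.09 CPM with rosiglitazone (SD, n = 3 each), a difference of -1.85 ± 0.0663 (adjusted p = 1.23e-19). Adcy3 averaged 38.4 ± 2.78 CPM with forskolin and 13.8 ± 0.247 with rosiglitazone, a difference of 1.47 ± 0.0676 (adjusted p = 7.19e-19). Adcy5 differed by -0.58 ± 0.103 (adjusted p = 1.73e-05), Adcy6 by -0.64 ± 0.0429 (adjusted p = 1.89e-14) and Adcy7 by 0.32 ± 0.0989 (adjusted p = 0.00870). That of Adcy7 was lost without Rosi3D S15 (adjusted p = 0.0728). Adrb1 differed by -0.37 (-1.14 to 0.40), Adcy4 by 0.29 (-0.65 to 1.23) and Adcy9 by 0.014 (-0.10 to 0.13), with none of them passing the test.

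**Figure D4:**
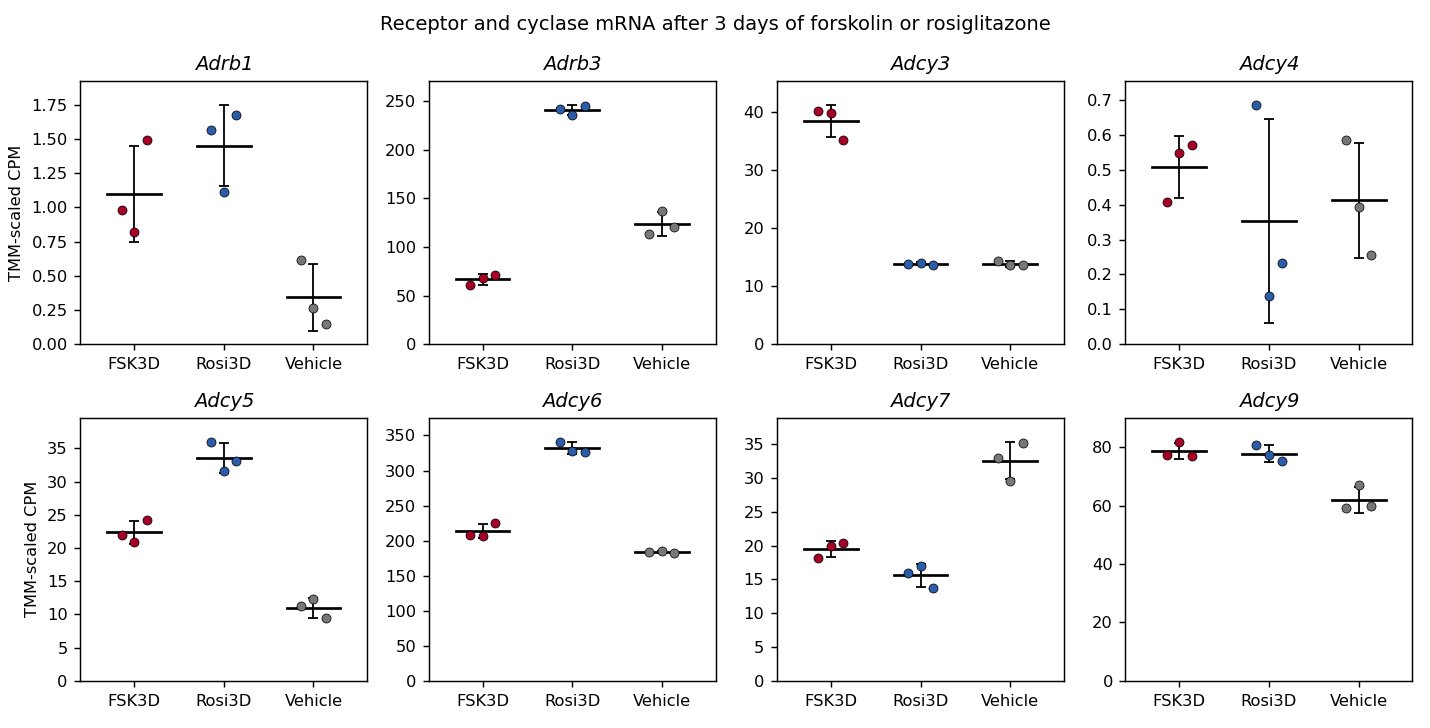
CPM of the 8 genes after 3 days of forskolin, after 3 days of rosiglitazone and with vehicle, on a separate linear axis per gene, where dots are libraries, bars are means and error bars are SD (n = 3). Adrb3 in the rosiglitazone libraries lies above that in the other 2 groups, and Adcy3 is highest in the forskolin libraries.

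Other genes of receptor and cyclase signalling were read from a list of 43 symbols, of which 40 have a row and 35 were tested. At 4 h 10 rose and 9 fell, at 1 day 5 rose and 10 fell, at 3 days of forskolin 9 rose and 12 fell, and with rosiglitazone 11 rose and 15 fell. Of all tested genes, 28.4% rose and 30.7% fell at 4 h, 19.5% and 20.7% at 1 day, 25.9% and 27.0% at 3 days of forskolin, and 28.6% and 32.0% with rosiglitazone, and nothing particular to the list is read from its counts. Among the adrenergic receptors, Adra2a, which inhibits cyclases through the inhibitory G protein, rose at every forskolin time, by 3.67 ± 0.352 (adjusted p = 6.34e-11) at 4 h, 3.12 at 1 day and 2.11 at 3 days. On halved counts its ratio to vehicle at 1 day was 8.85 (95% counting interval 5.06 to 16.7). Adra1d, which couples to the Gq protein, fell at 4 h (-1.89, adjusted p = 7.88e-18) and 1 day (-1.34, 6.79e-14). Adra1a, at low counts, fell at 4 h (-2.69 ± 0.846, adjusted p = 0.00677) and rose at 3 days (1.98 ± 0.517, adjusted p = 0.00154). The cyclase Adcy1 fell at 3 days of forskolin (-1.66, adjusted p = 1.94e-08) and with rosiglitazone (-1.54, 1.80e-08), and the low-count Adcy8 fell at 1 day (-2.56, 0.00201), with a ratio on halved counts of 0.188 (95% counting interval 0.0473 to 0.546). For Adra1a that ratio was 0.145 (95% counting interval 0.0160 to 0.631) at 4 h.

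Of the G protein subunits, Gnas, which encodes the stimulatory alpha subunit, fell at 3 days of forskolin by 0.40 (adjusted p = 1.23e-08). Gnas was also lower at 1 day (-0.13, 0.0273) and with rosiglitazone (-0.26, 2.58e-05). Gnb4, a beta subunit, fell at 3 days of forskolin (-1.58, adjusted p = 4.51e-17) and with rosiglitazone (-1.84, 1.55e-19). With rosiglitazone the gamma subunit Gng2 rose (1.46, 2.93e-07), Gng10 fell (-1.30, 6.25e-14) and the inhibitory alpha subunit Gnai1 rose (1.30, 1.62e-10). Gng10 was also lower at 1 day (-0.44, 1.82e-04) and at 3 days of forskolin (-0.45, 1.27e-04). Gng2 was lower at 4 h of forskolin (-0.76, 0.00821), and Gnai1 (-0.39, 0.0316) and Gnb4 (-0.23, 0.0158) were lower at 1 day. Of the 6 receptor kinases and arrestins tested, which desensitize receptors, Grk5 and Arrb1 rose in all 4 comparisons with vehicle. Grk5 was 0.69 at 4 h (adjusted p = 9.39e-12) and Arrb1 0.72 at 1 day (8.95e-14). Grk4 fell in all 4, by 1.11 at 4 h. Arrb2 fell at 4 h (-0.49), at 3 days of forskolin (-0.47) and with rosiglitazone (-0.29). Grk6 fell at 3 days of forskolin (-0.42) and with rosiglitazone (-0.50). Adrbk1 rose at 4 h (0.20) and fell at 3 days of forskolin (-0.18) and with rosiglitazone (-0.32). At 4 h the median over all tested genes was -0.03 with composition scaling and -0.23 with library size alone. The genes of this list were not read under other scalings or without single libraries, so a rise this small may depend on the scaling. Among cAMP effectors, Rapgef3, the exchange factor Epac1, fell at all 4, with -1.72 at 4 h (adjusted p = 4.43e-11), and the cAMP-binding Popeye proteins Popdc3 (3.89, 2.53e-05) and Bves (1.83, 0.00110) rose with rosiglitazone. Popdc3 rested on 74 counts with rosiglitazone and 4 with vehicle, and its ratio on halved counts was 16.0 (95% counting interval 4.13 to 137). Bves rested on 93 and 22 counts, with a ratio of 3.62 (1.85 to 7.75), and was also called higher at 4 h of forskolin (1.20, adjusted p = 0.0394). The other Popeye gene of the list, Popdc2, passed no test against vehicle and was -0.51 with rosiglitazone (adjusted p = 0.274). Grk5, Arrb1, Gnas, Grk4, Arrb2, Grk6, Adrbk1 and Popdc2 were named after their values were seen.

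**Figure D5:**
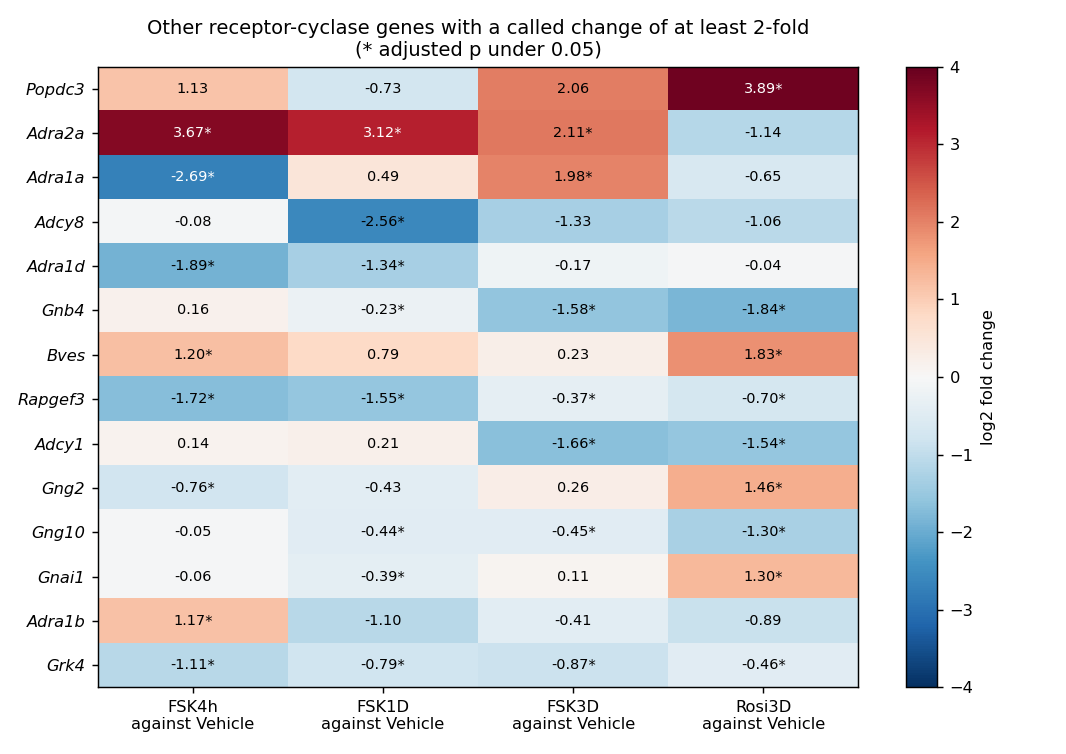
Log2 fold change against vehicle for 14 other genes of receptor and cyclase signalling (rows) in 4 comparisons (columns), with an asterisk for an adjusted p under 0.05, all called with at least a 2-fold change in one of them. Adra1b and Grk4 fall outside the 12 genes of the naming rule. Adra2a is highest at 4 h, and Popdc3 with rosiglitazone.

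Genes whose pattern over the 15 libraries was most like that of a member, by Pearson's r on log2(CPM + 1) among 14421 genes, are given as descriptions. For Adcy3 they were Clmp (0.994), Enpep (0.990) and Il1r1 (0.990). For Adrb3 they were Dhcr7 (0.985), Cped1 (0.984) and March8 (0.979). For Adrb1 they were Parl (0.922), Rgcc (0.894) and Tspan33 (0.884), and for Adcy4 A4galt (0.976), Rom1 (0.955) and Stc1 (0.944). For Adcy5 they were Lpin1 (0.992), Dbt (0.987) and Cib2 (0.987), and for Adcy7 Rasl11a (0.965), Gpsm2 (0.963) and Eng (0.961). The 3 libraries of a group share their treatment, so each r mostly describes how the 5 groups differ.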

How the data were processed

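RNA depleted of ribosomal RNA was sequenced (per the labels' protocols). The authors deposited raw counts of reads per gene symbol, as whole numbers. Per the submitters' processing notes they used fastp, STAR, featureCounts and GRCm38 (mm10). Tool versions, annotation and strand handling are not stated, so reads of genes that overlap on opposite strands may be mixed. The other deposited column used, gene Length in bases, has no stated origin and was used for levels per kb. Column names carry a group and a running library number, not the labels' replicate number, and columns were mapped to groups alone. No label says that libraries are separate cultures, and p-values therefore measure the spread between libraries, which may be technical.

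Genes passing filterByExpr (14421 of 24421) were tested with edgeR 4.0.16 in R 4.3.3, by the quasi-likelihood F test (TMM scaling, robust, all 15 libraries, 10 residual degrees of freedom), two-sided, with Benjamini-Hochberg adjustment over all tested genes, and rose or fell means an adjusted p under 0.05. DESeq2 1.42.0, other scalings and filters, and leaving out each library were alternatives. The tests were checked on simulated data. Low counts were mostly even, so intervals for low-count ratios used counts divided by 2 and cover counting error only. GENCODE vM21 matched 23376 symbols (95.7%).

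The 8 genes and the lists were chosen with earlier results of these data known. Other pathway genes were named when called with at least a 2-fold change against vehicle, at most 12 by size. Further genes of the list enter the counts, and some of them (Adra1b, Grk4, Grk5, Grk6, Adrbk1, Arrb1, Arrb2, Gnas and Popdc2) were named or plotted outside this rule. The list is given without 1 gene, which is not reported here. The 3 most similar genes were named for members that changed at least 2-fold. Start regions came from the RefSeq table (GRCm38.p6). Those of Adcy7 were searched but not printed, and the proteins planned for printing are not shown.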

Additional observations from a re-analysis of the deposited data

Results flagged for a closer look

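Of the differences of the 8 genes between pairs of treated groups, 22 passed the test (adjusted p under 0.05, edgeR). Of all tested genes, 28.4% were higher and 28.9% lower at 1 day against 4 h. At 3 days against 1 day 25.2% were higher and 25.8% lower, and against 4 h 35.0% and 33.5%. At 3 days of forskolin against rosiglitazone 22.5% were higher and 20.7% lower. The comparisons share treated libraries, so they are not independent. From 4 h to 1 day of forskolin the log2 difference was -0.22 for Adrb3, -0.93 for Adcy3, 1.11 for Adcy4, -0.31 for Adcy5, 0.40 for Adcy7 and 0.54 for Adcy9. From 1 day to 3 days it was 1.43 for Adrb3, -0.82 for Adcy3, -2.22 for Adcy4, 1.46 for Adcy5, -0.54 for Adcy7 and 0.46 for Adcy9. From 4 h to 3 days it was 1.21 for Adrb3, -1.75 for Adcy3, -1.11 for Adcy4, 1.14 for Adcy5 and 1.00 for Adcy9. Between 3 days of forskolin and 3 days of rosiglitazone it was -1.85 for Adrb3, 1.47 for Adcy3, -0.58 for Adcy5, -0.64 for Adcy6 and 0.32 for Adcy7. Which of these calls rest on 1 library is given with the results above.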

How the results depend on the processing

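The number of the 8 genes called in each comparison stayed within 1.5 times of its main value in all 141 alternative counts. These came from other scalings and filters, DESeq2 and leaving out each library. That range is wide for so few genes: at 1 day against 4 h the count was 6 and went as low as 4 without 1 library. The count also does not track which genes were called or in which direction. Apart from Adcy6 at 4 h against vehicle, the differences that changed sign were ones that had not passed the test. With library size alone, Adcy7 and Adcy9 were also called lower at 1 day against vehicle, and Adcy6 higher at 1 day and at 3 days against 4 h. With library size alone, Adcy6 at 4 h against vehicle was -0.048, Adcy7 from 4 h to 3 days was 0.037 and Adcy6 from 4 h to 1 day was 0.16. For rosiglitazone against vehicle, Adcy3 was 0.012 with RLE factors, 0.012 with no filter, 0.016 with a 1 CPM filter, 0.018 with halved counts, 0.0099 with the compared groups alone and 0.011 with DESeq2, and Adcy4 was 0.0087 with RLE factors, 0.011 with no filter, 0.047 with a 1 CPM filter, 0.11 with halved counts, 0.00068 with Rn45s left out and 0.012 with the compared groups alone. Adcy6 from 4 h to 1 day was 0.0083 with no filter, 0.0098 with a 1 CPM filter, 0.0080 with halved counts, 0.0057 with Rn45s left out and 0.0093 with the compared groups alone. The cause was not tested. Without 1 library, the log2 difference ran from -0.26 to 0.018 for Adcy5 at 4 h against vehicle, from -0.0076 to 0.046 for Adcy3 and from -1.11 to 0.37 for Adcy4 with rosiglitazone against vehicle, from -0.0059 to 1.40 for Adcy4 and from -0.016 to 0.041 for Adcy9 between 3 days of forskolin and rosiglitazone, from -0.0094 to 0.022 for Adcy6 from 4 h to 1 day, from -0.033 to 0.75 for Adrb1 from 1 to 3 days, and from -0.54 to 0.13 for Adrb1 from 4 h to 3 days. The share of Adcy6 among the cyclases with vehicle, at 4 h, 1 day and 3 days of forskolin and with rosiglitazone was 58.0%, 48.2%, 52.8%, 54.7% and 68.2% with the longest annotated transcript as length, and 56.8%, 47.5%, 51.9%, 53.4% and 66.9% with the union of exons, an alternative chosen after seeing the data. No paired analysis was possible because the columns carry running library numbers in place of the labels' replicate numbers. Adrb1 and Adcy4, with as few as 3 counts in a library, are limited by depth.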

Other observations

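No read of Adcy2, Adra2b or Adra2c was counted in any of the 15 libraries, which allows a level of up to 0.00692 CPM over all libraries together (3 counts, counting error only). Gnaz, with 100 counts over all libraries, and Adrbk2, with 23, did not pass the filter on low counts.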
